A study of Mus musculus with 6 samples.

Results

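Prostaglandins are lipid mediators of inflammation and pain that joint tissue makes from arachidonic acid. The 10 genes of their synthesis, breakdown and signalling are described here in mouse articular chondrocytes exposed to semaphorin 4D: Pla2g4a, Ptgs1, Ptgs2, Ptges, Ptges2, Ptgis, Slco2a1, Hpgd, Ptger2 and Ptger4. They were chosen by gene symbol for their role in the pathway, with earlier results of these data known. All 10 were found among the 24346 symbols of the deposited expression table. The RNA-seq libraries came from cultured primary chondrocytes of articular cartilage, the tissue covering joint surfaces, of ICR mice at postnatal day 4. The 3 control libraries came from cells cultured without semaphorin 4D (Sema4D, a ligand of plexin-B receptors) and the 3 Sema4D libraries from cells stimulated with it. No genetic change is given for either group, and the sources used here give no dose or duration of stimulation. Libraries are numbered 1 to 3 in each group. Nothing in the labels ties them to separate cultures or animals, so each p-value reflects library-to-library spread that could be technical.

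In the textbook pathway, cytosolic phospholipase A2 frees arachidonic acid from membranes, the cyclooxygenases COX-1 and COX-2 convert it to prostaglandin H2, and terminal synthases turn that into prostaglandin E2 (PGE2), prostacyclin and other prostanoids. The transporter SLCO2A1 carries prostaglandins into cells, where the enzyme 15-PGDH, encoded by Hpgd, inactivates them. PGE2 signals through 4 receptors (EP1 to EP4), of which EP2 and EP4 raise cyclic AMP, and it is known in cartilage as a product of inflamed joints.

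Expression was read as FPKM, fragments scaled to transcript length and library size, so levels of different genes can be compared, but only roughly. Steps in the low values put the depth at 1.25e+07 to 1.67e+07 fragments per library. Testing was limited to genes averaging 1 FPKM or more across the 6 libraries. The test was limma on log2(FPKM + 1), a scale that understates the change of low genes, and a gene was called at a Benjamini-Hochberg adjusted p under 0.05 over all 11603 genes tested. Fold changes below are ratios of mean FPKM, log2 fold changes are on the log2(FPKM + 1) scale with their standard error (SE), and group values are mean ± SD of 3 libraries. The labelled cell type was checked on 12 chondrocyte markers, including Col2a1, Acan and Sox9. All were detected in every library, and all 12 were called lower with Sema4D, where 22.2% of all tested genes were called lower. Of the level references, Rpl13a averaged 1525 and 1501 FPKM in control and Sema4D libraries, Actb 633 and 552 FPKM and Gapdh 1178 and 1708 FPKM.

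Ptges, the inducible PGE2 synthase, changed most among the 10 genes and rose 32.2-fold. Slco2a1 (4.49-fold), Ptgs2 (4.69-fold), Ptges2 (2.42-fold) and Pla2g4a (1.60-fold) also rose. Hpgd, the gene of prostaglandin inactivation, fell 7.81-fold, Ptgis, the gene of prostacyclin synthase, fell 1.91-fold, and Ptgs1, the gene of COX-1, fell 1.20-fold with a call that several alternative settings ended. The receptor genes Ptger2 and Ptger4 were under the filter on low values and were not tested. In all, 8 of the 8 tested genes were called, 5 higher and 3 lower, where 46.7% of all tested genes were called (24.5% higher and 22.2% lower). With a change of over 1.5-fold required as well, 7 of the 8 were called, 5 higher and 2 lower, against 13.4% of all tested genes (7.74% higher and 5.62% lower). The median absolute log2 fold change was 1.41 over the 8 genes and 0.15 over all tested genes. Because the genes were chosen with earlier results of these data known, these contrasts describe the chosen genes and are no independent support for a pathway-wide change. Each of the 8 had a mean of at least 1 FPKM in both groups, so none entered the test through 1 group alone. In these bulk cultures, fewer cells of a type and less RNA per cell cannot be told apart.

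**Figure D1:**
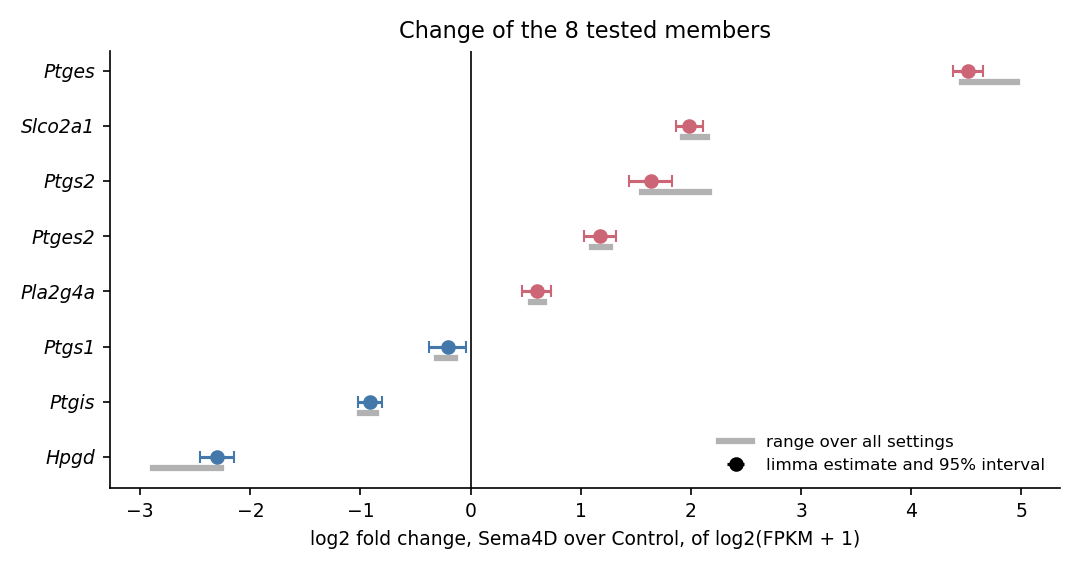
Log2 fold change of the 8 tested genes (Sema4D over control, on the log2(FPKM + 1) scale; one gene per row). Points and whiskers are the limma estimate and its 95% interval from 3 libraries per group, and grey bars span the estimates over all settings tried. Ptges stands at 4.52 and Hpgd at -2.30, and no grey bar crosses 0.

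The supply of substrate was read first. Pla2g4a (chromosome 1, 149829618 to 149961290 in mm10), which encodes cytosolic phospholipase A2, stood at 6.29, 5.58 and 6.10 FPKM in control libraries 1, 2 and 3, and at 9.28, 10.1 and 9.34 FPKM in Sema4D libraries 1, 2 and 3. Every Sema4D library was above every control library. The rise was from 5.99 ± 0.369 to 9.58 ± 0.476 FPKM (log2 fold change 0.60, SE 0.057, limma adjusted p = 5.31e-05).

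The cyclooxygenase genes moved in opposite directions. Ptgs2 (chromosome 1, 150100031 to 150108234), which encodes the inducible enzyme COX-2, stood at 1.30, 1.57 and 1.06 FPKM without Sema4D and at 6.03, 6.16 and 6.22 FPKM in the Sema4D libraries. The groups were far apart, and the Sema4D libraries lay closer together than the controls. Its log2 fold change was 1.64 (SE 0.085, limma adjusted p = 1.32e-06), which ranked 193 among the rises of 11603 tested genes. Ptgs2 lies 138740 bases from Pla2g4a on the same chromosome. The start sites of the 2 genes are their near ends, and the genes are transcribed away from each other.

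Ptgs1 (chromosome 2, 36216742 to 36258593), which encodes the constitutive enzyme COX-1, stood at 3.95, 3.72 and 4.03 FPKM in the control and at 3.49, 3.39 and 2.87 FPKM in the Sema4D libraries. The groups did not overlap, but the lowest control and the highest Sema4D library were close, and Sema4D library 3 was lower than the other two. The fall was small (log2 fold change -0.21, SE 0.072, limma adjusted p = 0.0439). It missed the threshold without control library 1 (adjusted p = 0.102), 2 (0.0604) or 3 (0.119), without Sema4D library 2 (0.060) or 3 (0.115), and with no filter on low values (0.0797), in a range of 0.0129 to 0.119 over the settings.

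Within a library, the ratio of Ptgs2 to Ptgs1 was 0.328, 0.421 and 0.262 in the controls and 1.73, 1.82 and 2.17 with Sema4D. Ptgs1 was thus the more abundant cyclooxygenase transcript in every control library and Ptgs2 in every Sema4D library.

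**Figure D2:**
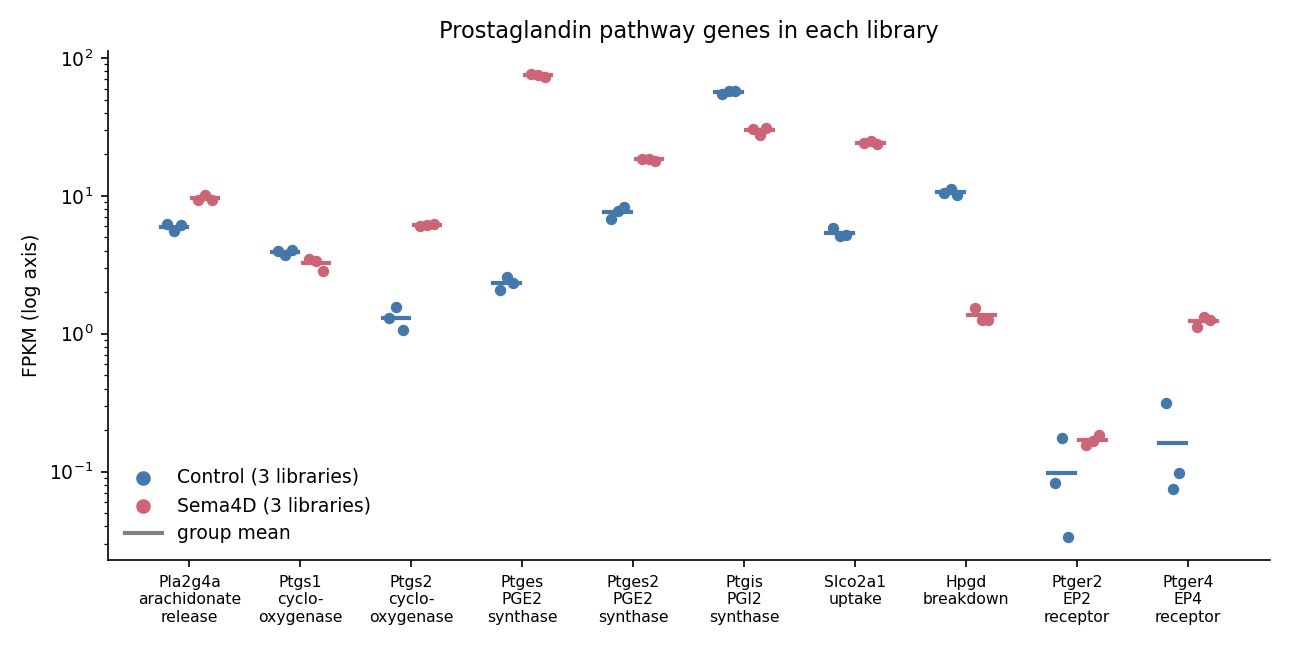
FPKM (log axis) of the 10 genes in each library, ordered by their step in the pathway. Points are libraries, bars are group means; in Ptger2 alone the groups overlap, and Ptges moves from 2.33 to 74.9 FPKM.

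Among the terminal synthases, Ptges (chromosome 2, 30889471 to 30931020) encodes microsomal PGE synthase-1, the inducible partner of COX-2. It stood at 2.06, 2.58 and 2.34 FPKM in the control and at 76.7, 75.5 and 72.6 FPKM in the Sema4D libraries. The spread between libraries was small beside the gap between the groups, and the rise (log2 fold change 4.52, SE 0.059, limma adjusted p = 2.84e-10) ranked 23 among the rises of all tested genes. Among the 10 genes, Ptges was seventh in mean level in the controls and the highest with Sema4D.

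Ptges2 (chromosome 2, 32395890 to 32402740), which encodes microsomal PGE synthase-2, stood at 6.75, 7.78 and 8.24 FPKM in the control and at 18.5, 18.5 and 18.0 FPKM in the Sema4D libraries. All Sema4D libraries were higher than all controls (log2 fold change 1.18, SE 0.064, limma adjusted p = 1.78e-06). This enzyme is usually described as constitutive. The ratio of Ptges to Ptges2 went from 0.307 ± 0.0238 in the controls to 4.08 ± 0.0522 with Sema4D, so the order of these PGE2 synthase transcripts was the reverse in the 2 groups.

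Ptgis (chromosome 2, 167203194 to 167252150), the prostacyclin synthase gene, was the most abundant of the 10 in the controls, at 55.0, 58.1 and 57.7 FPKM. It stood at 30.6, 27.7 and 31.2 FPKM with Sema4D, below every control library (log2 fold change -0.91, SE 0.048, limma adjusted p = 1.43e-06). The ratio of Ptgis to Ptges was 26.7, 22.5 and 24.7 in the controls and 0.399, 0.367 and 0.429 with Sema4D.

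The promoters of Ptges, Ptgs2 and Ptges2, the synthesis genes that rose most, and of Hpgd, the breakdown gene, are shown here. Promoter activity was not measured. The sequences are the 250 bases before the RefSeq start site (build GRCm38.p6, the assembly of mm10), 5′ to 3′ on the strand of the gene; the Ptges start used lies inside the span given for that gene. Capitals mark matches to 7 motifs searched on both strands. The motifs were the TATA box TATAAA, the GC box GGGCGG, the cyclic AMP response element core TGACG, the E-box CACGTG, the C/EBP motif TTGCNNAA, the AP-1 motif TGANTCA and the NF-kappaB consensus. No motif overlapped another kind of motif in these 4 windows.
Ptges, chr2:30903298-30903547, minus strand: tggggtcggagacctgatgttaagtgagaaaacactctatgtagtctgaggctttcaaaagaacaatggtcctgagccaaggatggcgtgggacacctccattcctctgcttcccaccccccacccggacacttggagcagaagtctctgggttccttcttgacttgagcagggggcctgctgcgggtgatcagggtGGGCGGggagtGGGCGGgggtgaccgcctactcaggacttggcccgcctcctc
Ptgs2, chr1:150099781-150100030, plus strand: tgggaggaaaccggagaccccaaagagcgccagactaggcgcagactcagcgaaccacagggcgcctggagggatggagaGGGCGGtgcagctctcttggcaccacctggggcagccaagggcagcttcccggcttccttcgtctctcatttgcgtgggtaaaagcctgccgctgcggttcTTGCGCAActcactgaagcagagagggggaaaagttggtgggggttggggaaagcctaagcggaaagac
Ptges2, chr2:32395640-32395889, plus strand: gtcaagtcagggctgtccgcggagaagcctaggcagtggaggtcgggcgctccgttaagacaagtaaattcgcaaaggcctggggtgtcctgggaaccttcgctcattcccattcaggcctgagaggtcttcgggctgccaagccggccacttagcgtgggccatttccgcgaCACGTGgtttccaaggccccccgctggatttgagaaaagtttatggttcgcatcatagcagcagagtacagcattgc
Hpgd, chr8:56294302-56294551, plus strand: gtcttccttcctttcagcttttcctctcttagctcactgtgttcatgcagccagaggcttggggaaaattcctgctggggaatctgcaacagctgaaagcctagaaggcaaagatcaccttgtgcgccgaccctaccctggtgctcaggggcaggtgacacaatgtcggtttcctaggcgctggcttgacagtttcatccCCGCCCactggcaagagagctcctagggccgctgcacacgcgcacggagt

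Ptges held 2 GC boxes, beginning 53 and 42 bases before the start. Ptgs2 held a GC box beginning 170 bases and the C/EBP match TTGCGCAA beginning 69 bases before the start. Ptges2 held an E-box at 77 bases and Hpgd a GC box on the opposite strand at 50 bases. Of the 32851 windows of the same length in the RefSeq table, 32.7% held a GC box, 9.56% the C/EBP motif and 6.02% the E-box. A TATA box was in 12.4% of those windows, the cyclic AMP core in 17.8%, the AP-1 motif in 6.75% and the NF-kappaB consensus in 7.25%, and none of these 4 had a match in the 4 windows shown. RefSeq windows were found for 9 of the 10 genes. A match describes letters in a window. Matches outside these bases, past the start site included, were not searched for, and other start sites of the 4 genes were not used. A motif with no match in a window may thus lie elsewhere in the promoter.

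Ptges2 has strongly changed neighbours. Lcn2, which encodes the siderophore-binding protein lipocalin, lies 8150 bases away on the opposite strand. It stood at 15.0, 15.8 and 17.8 FPKM in the control and 2097, 2144 and 2096 FPKM in the Sema4D libraries. Of the 5 genes of this stretch in the table, Ptges2 included, all rose: 1110008P14Rik from 31.9 ± 1.52 to 98.0 ± 3.71 FPKM (limma adjusted p = 2.75e-08), Slc25a25, a mitochondrial carrier gene, 1.60-fold, and Ciz1 1.23-fold. Around all 10 genes, 13 neighbours within 30 kilobases were in the table and 10 were tested. In that set 4 were higher and 1 lower, a share near the 46.7% called among all tested genes. The 4 were all beside Ptges2, and the 1 was Prrx2, which lies 8219 bases from Ptges and fell. Whether the change of Ptges2 is tied to its neighbours was not tested. The sources used here give no strand setting for the counting, and no gene of the table overlaps Ptges2 in the RefSeq annotation.

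**Figure D3:**
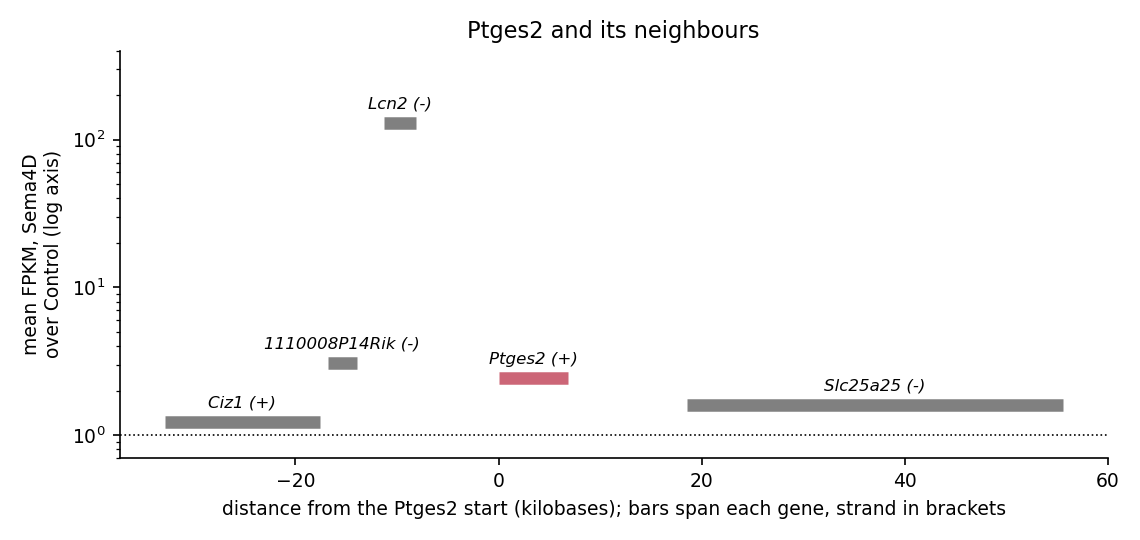
Ratio of mean FPKM, Sema4D over control (log axis), of Ptges2 and its neighbours in the table, against distance from the Ptges2 start in kilobases. Each bar spans 1 gene; Lcn2 stands at 130.3 and Ptges2 at 2.42, and all bars are above 1.

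Uptake and breakdown moved apart. Slco2a1 (chromosome 9, 103007061 to 103096002), the prostaglandin transporter gene, stood at 5.88, 5.13 and 5.18 FPKM in the control and at 24.0, 24.9 and 23.9 FPKM in the Sema4D libraries. The groups were well separated (log2 fold change 1.98, SE 0.053, limma adjusted p = 2.44e-08). Hpgd (chromosome 8, 56294552 to 56321046), which encodes the enzyme that inactivates prostaglandins after uptake, stood at 10.5, 11.2 and 10.2 FPKM in the control and at 1.55, 1.26 and 1.26 FPKM in the Sema4D libraries. All Sema4D libraries were low, and the change (log2 fold change -2.30, SE 0.068, limma adjusted p = 4.08e-08) ranked 8 among the falls of all tested genes. On its longest annotated transcript, the Sema4D values of Hpgd correspond to about 29.9 to 43.4 fragments per library, and the control values to about 221 to 304.

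In the controls Hpgd was second in level to Ptgis, and it was above Ptges in each library, with a ratio of Ptges to Hpgd of 0.197, 0.231 and 0.229. With Sema4D that ratio was 49.6, 59.7 and 57.5. The ratio of Slco2a1 to Hpgd was 0.509 ± 0.050 in the controls and 18.0 ± 2.21 with Sema4D. These ratios compare transcript levels and were not tested.

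**Figure D4:**
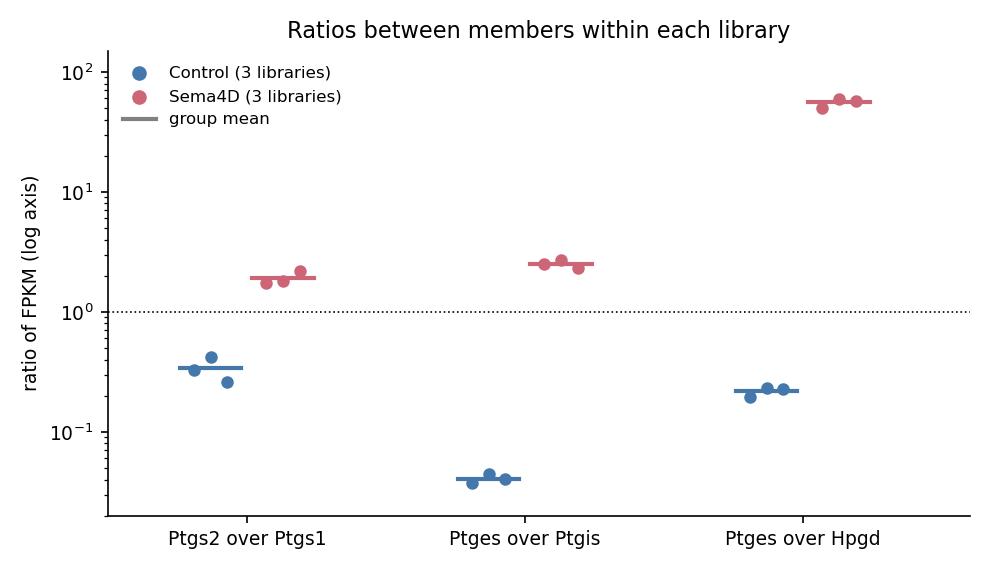
Ratios of FPKM between pairs of the genes within each library (log axis; points are libraries, bars are group means). All 3 ratios lie below 1 in the 3 control libraries and above 1 in the 3 Sema4D libraries.

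The receptor genes were the lowest of the 10. Ptger4 (chromosome 15, 5233399 to 5244187), which encodes EP4, stood at 0.315, 0.0749 and 0.0974 FPKM in the control and at 1.12, 1.33 and 1.26 FPKM in the Sema4D libraries. The groups did not overlap. The values correspond to about 4.6 to 14.9 fragments in the controls and 66.7 to 78.5 with Sema4D on the longest annotated transcript. With no filter on low values, where the gene could be tested, it was called (log2 fold change 0.95, SE 0.086, limma adjusted p = 0.000221).

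Ptger2 (chromosome 14, 44988111 to 45003820), which encodes EP2, stood at 0.0831, 0.177 and 0.0334 FPKM in the control and at 0.156, 0.167 and 0.185 FPKM in the Sema4D libraries. These values overlapped and correspond to about 1.9 to 10.5 fragments, so a difference was not detectable at this depth (limma adjusted p = 0.208 with no filter on low values).

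Ordered by mean level in the controls, the genes ran Ptgis, Hpgd, Ptges2, Pla2g4a, Slco2a1, Ptgs1, Ptges, Ptgs2, Ptger4 and Ptger2. Pla2g4a and Slco2a1 overlapped in that order, as did Ptger4 and Ptger2. With Sema4D the order was Ptges, Ptgis, Slco2a1, Ptges2, Pla2g4a, Ptgs2, Ptgs1, Hpgd, Ptger4 and Ptger2, and only Hpgd and Ptger4 overlapped among neighbours in it. The groups did not overlap for 9 of the 10 genes, and for 8 of the 8 tested, against 56.6% of all tested genes.

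The other genes of the pathway were read from 6 lists with 103 symbols in the table, of which 57 were tested. Of these, 21 rose and 15 fell, or 63.2%, beside the 46.7% of all tested genes. The same 46.7% is the share to set beside the counts of each list below. The median log2 fold change was 0.04, against 0.01 over all tested genes. The split depended on scaling. With every library scaled to the same FPKM sum, 17 rose and 23 fell, and the share of higher genes among all calls went from 52.4% to 34.5%. It was 38.8% after quantile normalization. Changes of over 1.5-fold were found in 8 genes that rose and 2 that fell. These counts include Ptgir and Pla2g5, which passed the filter on low values only through the group where they were high.

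Of the other prostanoid synthase genes, 6 of 10 were tested, 2 rose and 1 fell. Akr1b3 had the largest log2 fold change of this list (1.05, SE 0.602) but was not past the threshold (limma adjusted p = 0.189). It stood at 0.000497, 1.38 and 0.000483 FPKM in the control and 0.000475, 3.08 and 4.18 FPKM in the Sema4D libraries. The libraries thus differed widely within each group, and Akr1b3 passed the filter only through its Sema4D values. Akr1b8, an aldo-keto reductase gene, rose from 12.4 ± 0.671 to 20.9 ± 0.367 FPKM (log2 fold change 0.71). Ptges3, which encodes the cytosolic PGE synthase and heat shock protein co-chaperone p23, rose 1.17-fold from 64.6 ± 0.518 FPKM. Fam213b, which encodes a prostamide and prostaglandin F synthase, fell (-0.21, limma adjusted p = 0.0233, within 0.00346 to 0.0762 over the settings), and it missed the threshold without control library 1 (0.0711) or without Sema4D library 2 (0.0762) or 3 (0.0663). The prostaglandin D2 synthase genes Ptgds and Hpgds and the thromboxane synthase gene Tbxas1 were under the filter, at no more than 0.773 FPKM in any library.

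Of 29 other phospholipase and arachidonate genes in the table, 15 were tested, 7 rose and 6 fell. Mgll, whose lipase releases arachidonic acid from an endocannabinoid, rose from 3.20 ± 0.480 to 6.45 ± 0.477 FPKM. The secreted phospholipase genes Pla2g2e and Pla2g12a rose 1.31-fold and 1.37-fold, and Acsl4, which attaches arachidonic acid to coenzyme A, rose 1.35-fold. Fads1 and Fads2, the desaturase genes of arachidonic acid synthesis, fell 1.33-fold and 1.26-fold. Pla2g5, another secreted phospholipase, stood at 1.64, 1.52 and 1.32 FPKM in the control and 0.818, 0.777 and 1.27 FPKM in the Sema4D libraries. It passed the filter only through its control values, so the call is no independent sign of a fall. The call (limma adjusted p = 0.0321, within 0.00611 to 0.0945 over the settings) missed the threshold without control library 1 (0.0945) or 2 (0.0783) or Sema4D library 1 (0.0932) or 2 (0.0915).

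Export and breakdown outside the 10 genes had 7 tested genes of 9, of which 4 rose and 2 fell. Abcc4, which encodes the prostaglandin exporter MRP4, rose 2.07-fold from 9.59 ± 0.149 to 19.8 ± 0.855 FPKM. The transporter gene Slco3a1 rose 1.89-fold, the carbonyl reductase gene Cbr3 1.56-fold and Ptgr1, which encodes a prostaglandin reductase acting after 15-PGDH, 1.42-fold. Cbr2, a carbonyl reductase gene, fell from 85.2 ± 2.22 to 64.8 ± 0.736 FPKM. Ptgr2, the other reductase, stood at 13.3 ± 0.0376 and 12.2 ± 0.544 FPKM and fell narrowly (limma adjusted p = 0.0453), a call that was lost without any 1 of the control libraries, without Sema4D library 1 or 2 and with no filter on low values, within 0.00647 to 0.146 over the settings.

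Of 8 other prostanoid receptor genes, 4 were tested and 3 rose. Ptgir, which encodes the prostacyclin receptor, stood at 0.237, 0.183 and 0.0762 FPKM in the control and 2.77, 2.34 and 2.38 FPKM with Sema4D, a rise at a limma adjusted p of 3.03e-06. It passed the filter only through its Sema4D values, so the call is no independent sign of a rise. The enzyme of Ptgis makes the ligand of this receptor, and a link between the changes of Ptgir and Ptgis was not tested. Ptgfr, the prostaglandin F receptor gene, rose 1.60-fold, and Ptgfrn, a regulator of that receptor, 1.16-fold, a rise that missed the threshold after scaling to the same sum (limma adjusted p = 0.0657) or quantile normalization (0.0518), within 0.00775 to 0.0657 over the settings. Ptger1, which encodes EP1, was the most abundant EP receptor transcript at 8.15 ± 0.460 and 8.93 ± 1.03 FPKM, and the difference was not past the threshold (limma adjusted p = 0.267). Ptger3, which encodes EP3, was at no more than 0.0409 FPKM in the controls and was listed at 0 in the 3 Sema4D libraries.

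**Figure D5:**
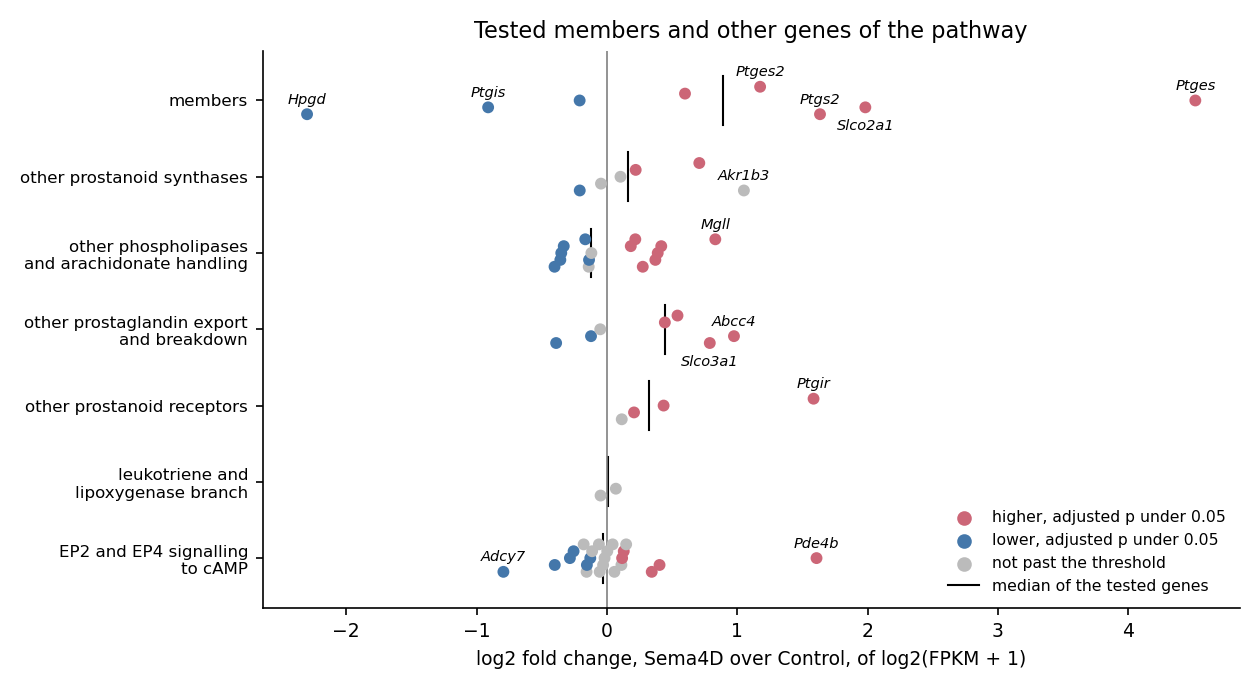
Log2 fold change (Sema4D over control, on the log2(FPKM + 1) scale) of the tested genes, one point per gene, in the 10-gene set (top) and the 6 other pathway lists. Colour gives the limma call and vertical bars are list medians; the top row spans -2.30 to 4.52, and most other points lie within 1 of 0.

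In the leukotriene branch only 2 of 17 genes were tested and neither was past the threshold: the leukotriene A4 hydrolase gene Lta4h at 36.4 ± 0.414 and 35.1 ± 0.905 FPKM, and Anxa1, which encodes a glucocorticoid-induced restraint on phospholipase A2, at 178 ± 5.11 and 187 ± 11.1 FPKM. Alox5, the gene of the enzyme that starts leukotriene synthesis, was at no more than 0.113 FPKM, and Ltc4s was listed at 0 in all 6 libraries.

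Downstream of EP2 and EP4, 23 of 30 genes of the cyclic AMP route were tested and 11 were called, of which 5 rose and 6 fell. That share was near the 46.7% called among all tested genes. Pde4b, whose phosphodiesterase degrades cyclic AMP, rose 4.04-fold from 2.06 ± 0.230 to 8.32 ± 0.438 FPKM (log2 fold change 1.61, SE 0.072). Crem, a cyclic AMP-responsive transcription factor gene, rose from 2.07 ± 0.137 to 3.08 ± 0.435 FPKM (0.40). The adenylyl cyclase genes Adcy7, Adcy2 and Adcy9 fell 1.97-fold, 1.37-fold and 1.27-fold, and Gnas, which encodes the stimulatory G protein, 1.19-fold.

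Markers of other cell types that express these genes were read beside them. Among all tested genes 24.5% were called higher and 22.2% lower, the shares to set beside the counts of each marker list. Endothelium is a known site of Ptgis and Slco2a1, and 9 of 10 endothelial markers were under the filter. Pecam1 and Cdh5, which define that cell type, were at no more than 0.148 and 0.063 FPKM, and the markers summed to 2.75 to 3.40 FPKM in the controls and 2.24 to 2.51 FPKM with Sema4D, of which Egfl7, the one tested, was the most abundant and fell 1.35-fold. Macrophage markers, 3 of 10 tested, summed to 24.4 to 31.3 FPKM in the controls and 20.5 to 23.4 FPKM with Sema4D. The members went in different directions: Lyz2 fell from 22.4 ± 3.55 to 15.9 ± 1.27 FPKM, Cd68 was not past the threshold, and Tyrobp was called lower after passing the filter only through its control values (1.68 ± 0.654 and 0.636 ± 0.282 FPKM). Of the untested markers, Adgre1 stood at 0.203 ± 0.108 and 0.673 ± 0.0979 FPKM and Fcer1g at 0.234 ± 0.274 and 1.15 ± 0.417 FPKM, both higher in every Sema4D library than in any control, while C1qa stood at 0.632 ± 0.218 and 0.0213 ± 0.0369 FPKM, lower in every Sema4D library. Ptprc and Csf1r were at no more than 0.1265 and 1.16 FPKM. Mast cell and platelet markers were all under the filter, with sums of 0.832 to 1.63 FPKM in the controls and 2.49 to 2.84 FPKM with Sema4D. Of the 8, 4 (Cpa3, Tpsb2, Mcpt4 and Fcer1a) were listed at 0 in all libraries. Kit averaged 0.056 and 0.273 FPKM in control and Sema4D libraries, Pf4 0.278 and 1.10 FPKM and Ppbp 0.022 and 0.587 FPKM. Each of these was higher in every Sema4D library than in any control. Itga2b overlapped between the groups, at 0.808 and 0.715 FPKM.

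Smooth muscle and pericyte markers, 3 of 8 tested, had sums of 85.6 to 92.9 FPKM and 62.0 to 64.1 FPKM, nearly all from Cspg4, which chondrocytes also express. The 3 tested fell: Mcam 2.22-fold, Cspg4 1.39-fold and Actg2 1.32-fold. Fibroblast and synovial lining markers were abundant, with sums of 5271 to 5633 FPKM and 5367 to 5596 FPKM. Of the 7 tested, Dcn and Pdgfra rose, Thy1 and Dpt fell, and 3 were not past the threshold. The chondrocyte markers summed to 15162 to 16411 FPKM in the controls and 12161 to 13196 FPKM with Sema4D. Among them Hapln1 fell 1.88-fold, Sox9 1.85-fold, Acan 1.66-fold, Matn3 1.54-fold, Matn1 1.51-fold and Cytl1 1.44-fold, and Col11a1, Col11a2, Col9a1, Col9a2, Comp and Col2a1 fell between 1.19-fold and 1.33-fold. The part of these shifts in the changes of Hpgd, Ptgis and the other prostaglandin genes was not tested.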

How the data were processed

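The deposited FPKM values are those of the authors, whose tools per the submitters' processing notes were Cufflinks 2.2.1, TopHat2 2.0.13, SAMtools 0.1.19 and Bowtie2 2.2.3, listed without roles, with mm10 as the build. The sources used here state no annotation, strand setting or filter. Values were used as deposited, in 6 libraries of 3 per group. After a log2(FPKM + 1) transform, genes averaging 1 FPKM or more were fitted in limma 3.58.1 (R 4.3.3; lmFit, eBayes with trend; two-sided; no block), with Benjamini-Hochberg adjustment over 11603 genes. The other 12743 symbols were under the filter. FPKM are not counts: whole fragments, within 0.15, were found for 77.0% to 82.8% of low values, too few to recover counts, so no count test was run. That step estimate, from 1681 genes with 1 transcript over 2000 bases in GENCODE, also gave the approximate fragments. In each pair of libraries at most 0.293% of tested genes had identical values, so all libraries were kept.

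The 10 genes, the pathway lists and the marker lists were chosen with earlier results of these data known. Named genes were the 10, pathway genes called with a change of over 1.5-fold or among the 3 smallest p of their list, and markers called or at 0; further names were chosen after their values were seen. Markers covered chondrocytes, endothelium, macrophages, smooth muscle and pericytes, fibroblasts and synovial lining, and mast cells and platelets. Alternatives were a pseudocount of 0.1, no filter, a mean of at least 5 FPKM, quantile normalization, scaling to a common sum, a replicate block and leaving out each library. The fit was tested on simulated data. Gene positions and promoters come from RefSeq (GRCm38.p6), and figures used Python 3.11.15 with matplotlib 3.10.9.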

Additional observations from a re-analysis of the deposited data

How the results depend on the processing

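Ptges, Slco2a1, Ptgs2, Ptges2, Pla2g4a, Hpgd and Ptgis kept their direction and their call in every setting in which they were tested. Ptgs1 kept its direction and lost its call in 7 settings, so 7 to 8 of the 8 genes were called when 1 library was left out. With a mean of at least 5 FPKM, 6 of 6 tested genes were called. With a pseudocount of 0.1 the log2 fold change was 4.96 for Ptges, 2.16 for Ptgs2 and -2.88 for Hpgd. Scaling to a common FPKM sum moved the median of all genes by -0.08 and raised the falls among the other pathway genes from 15 to 23. Leaving out 1 library gave 30 to 33 called pathway genes and 4688 to 4962 called genes in all.

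The replicate numbers did not pair the libraries throughout: the deviations of same-numbered libraries correlated at 0.14, -0.08 and -0.05 across genes. Control library 2 and Sema4D library 3 correlated at 0.136, and control library 3 and Sema4D library 2 at 0.103. All other differently numbered pairs had negative values. A pairing in another order was not tested. With a replicate block, 4994 genes, 7 of the 8 prostaglandin genes and 33 other pathway genes were called, and Ptgs1 had an adjusted p of 0.0723. Depth limits the statements on Ptger2 and the control values of Ptger4, which rest on fewer than 15 fragments per library.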

Other observations

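Ptgs2os2, a long non-coding RNA gene on the opposite strand from Ptgs2, lies 50815 bases beyond its end in GENCODE. Its control libraries held 0, 0.0373 and 0 FPKM and its Sema4D libraries 0.362, 0.466 and 0.386 FPKM, and it was under the filter on low values. Ptgs2os, on the opposite strand just upstream of Ptgs2, was at no more than 0.0214 FPKM in any library. Both were chosen after their values were seen.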
